A study of Mus musculus with 6 samples.

Results

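The 10 genes described here encode the transforming growth factor beta (TGF-beta) ligands Tgfb1, Tgfb2 and Tgfb3, their receptors Tgfbr1, Tgfbr2 and Tgfbr3, the inhibitory signal mediator Smad7, and the latent binding proteins Ltbp1, Ltbp3 and Ltbp4. They were chosen by gene symbol, and all 10 were found among the 55335 gene identifiers in the files. The question of the series is how astrocytes regulate the blood-brain barrier by passing on mitochondria. RNA was sequenced from wild-type (WT) bEnd.3 cultures, a mouse brain endothelial line made immortal with a viral oncogene. The 3 control libraries came from cells given 100 µl of medium, and the 3 mitochondria libraries from cells given mitochondria of primary mouse astrocytes in the same volume, with 24 h of co-incubation. Every library is of this 1 line. Nothing in the labels states separate cultures, so p-values measure the spread between these libraries, which may be technical.

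TGF-beta is made as a precursor that furin-like proteases cut, after which the propeptide stays wrapped around the ligand and keeps it inactive. A latent binding protein is joined to this propeptide and deposits the complex on fibrillin in the matrix, where integrins and proteases can release the ligand. Free ligand brings together the kinases Tgfbr2 and Tgfbr1, of which Tgfbr1 phosphorylates SMAD2 and SMAD3, and Smad7 damps the signal as a product of feedback. In brain vessels the pathway is known for its part in contacts between endothelium and pericytes and in vessel maturation.

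Values are FPKM, fragments scaled to transcript length and library size, and can be compared between genes. From the spacing of low values, depth was estimated at 17000000 to 21100000 fragments per control library and 21800000 to 27100000 per mitochondria library, a range that lay wholly higher. The labelled cell type was weakly borne out by its markers. Of 15 endothelial markers 8 stayed under 1 FPKM in every library, among them Cdh5, Pecam1 and Cldn5, while Cd34 and Eng were high. The summed endothelial markers lay at 140 to 148 FPKM in the controls and 163 to 175 with mitochondria. Without Cd34 they overlapped, at 80.6 to 89.9 and 83.2 to 92.7 FPKM. Flt1 and Kdr were lower in every mitochondria library, while the means of Tie1, Egfl7, Esam and Eng were higher with mitochondria. Of 14 fibroblast and mural markers 6 reached 1 FPKM, with sums of 427 to 463 FPKM in the controls and 377 to 416 with mitochondria. Of these 6, Pdgfra and Acta2 were higher and Col1a1 and Postn lower in every mitochondria library, and Postn reached 1 FPKM only in the controls. The mean of Col3a1 was higher with mitochondria and that of Pdgfrb lower. Of 10 astrocyte markers 4 reached 1 FPKM, Aqp4 and Sox9 were listed at 0, and the sums were 26.8 to 63.7 FPKM against 42.4 to 48.5. Those sums came mostly from Gja1 and Aldoc. Aldh1l1 was at 0.302 to 0.455 FPKM in the controls and at 0.972 to 1.15 FPKM with mitochondria. Of the other markers that reached 1 FPKM, the mean was higher with mitochondria for Aldoc and lower for Gja1 and S100b. Of 7 microglial markers only Tmem119 reached 1 FPKM, the sums were 224 to 272 FPKM against 182 to 208, and Ptprc, C1qa and P2ry12 were listed at 0. In these bulk samples, fewer cells of a type and less RNA per cell cannot be told apart.

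The 1 change called among these genes was in a latent binding protein. Ltbp1 fell by 46.9% of its control mean with mitochondria, while no ligand, no receptor and not Smad7 passed the test. A gene was called where limma's Benjamini-Hochberg adjusted p over the 12639 genes tested was below 0.05, and 1 of the 10 was called, in the lower direction. Over all genes tested the share called was 1.12%, and 0.649% were called lower. Before adjustment 3 of the 10 had a limma p under 0.05, Ltbp1, Ltbp3 and Ltbp4, all lower, against 7.32% of all genes. In 5 of the 10 genes the groups did not overlap, against 21.0% of all genes tested. These were 3 genes lower and 2 higher with mitochondria, beside 11.4% and 9.62% of all genes. The median log2 change of the 10 was −0.08, beside −0.01 over all genes tested. The 10 genes were chosen with earlier results of these data known, so these counts are not independent evidence.

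**Figure D1:**
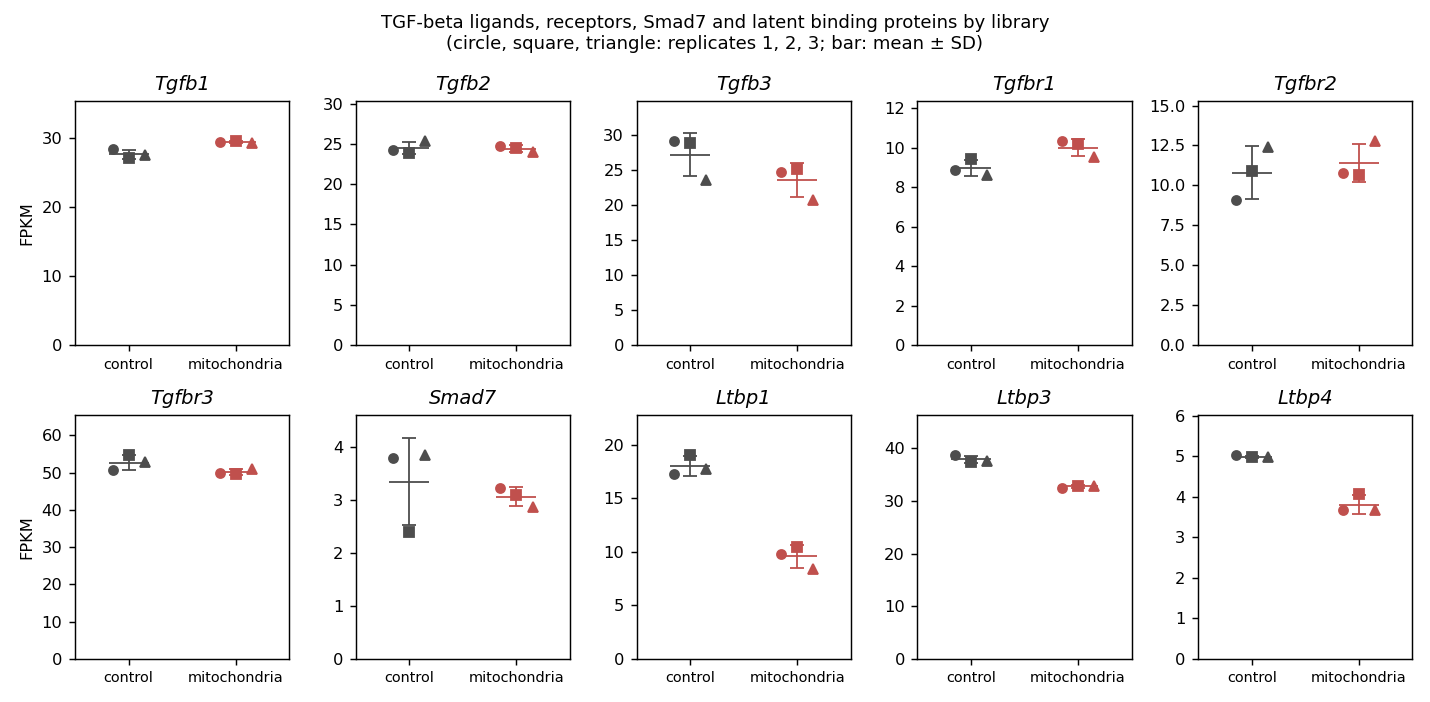
FPKM of each of the 10 genes (vertical axes, from 0) in the 3 control and 3 mitochondria libraries, with points for libraries and bars for the mean ± SD. The groups are apart and lower with mitochondria for Ltbp1, Ltbp3 and Ltbp4, and apart and higher for Tgfb1 and Tgfbr1.

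The upstream sequences of the latent binding protein genes are shown because all 3 sat lower together with mitochondria, and that of Tgfb1 because it did not. Each is the 250 bases before a start site, 5′ to 3′ on the gene's strand, from RefSeq on GRCm38.p6, whose table matched 7 of the 10 genes. RefSeq places 2 starts for Ltbp1, of which the upstream one is known to give the long protein form. For Ltbp4 it places 3 starts, and the window printed is the 1 that holds no annotated exon base of the 10 genes. The deposited values are per gene, so use of the starts was not measured. Capitals mark CAGAC, a core that SMAD proteins bind, GGGCGG, the SP1 box, and GCGTGGGCG, the EGR1 site, on either strand.
Ltbp1 upstream start, chr17:75005279-75005528, plus strand: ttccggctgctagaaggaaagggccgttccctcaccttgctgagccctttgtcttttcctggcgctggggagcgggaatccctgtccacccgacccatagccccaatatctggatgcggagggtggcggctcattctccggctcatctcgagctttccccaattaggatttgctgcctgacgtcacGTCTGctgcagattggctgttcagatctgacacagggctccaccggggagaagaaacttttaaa
Ltbp1 downstream start, chr17:75178531-75178780, plus strand: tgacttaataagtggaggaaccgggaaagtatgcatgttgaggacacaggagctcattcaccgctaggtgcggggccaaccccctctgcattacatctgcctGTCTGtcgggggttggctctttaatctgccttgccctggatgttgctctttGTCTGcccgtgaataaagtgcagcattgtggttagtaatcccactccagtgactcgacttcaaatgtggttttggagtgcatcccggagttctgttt
Ltbp3, chr19:5740650-5740899, plus strand: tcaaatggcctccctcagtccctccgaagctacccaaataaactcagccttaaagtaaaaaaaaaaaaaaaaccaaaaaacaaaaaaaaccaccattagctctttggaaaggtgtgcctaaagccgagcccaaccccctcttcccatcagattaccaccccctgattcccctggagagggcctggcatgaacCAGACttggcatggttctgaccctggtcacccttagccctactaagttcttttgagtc
Ltbp4, chr7:27333664-27333913, minus strand: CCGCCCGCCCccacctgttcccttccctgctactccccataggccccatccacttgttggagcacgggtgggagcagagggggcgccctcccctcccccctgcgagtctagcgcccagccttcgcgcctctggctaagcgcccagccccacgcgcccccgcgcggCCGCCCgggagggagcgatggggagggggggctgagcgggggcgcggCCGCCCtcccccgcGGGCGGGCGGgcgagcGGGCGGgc
Tgfb1, chr7:25686752-25687001, plus strand: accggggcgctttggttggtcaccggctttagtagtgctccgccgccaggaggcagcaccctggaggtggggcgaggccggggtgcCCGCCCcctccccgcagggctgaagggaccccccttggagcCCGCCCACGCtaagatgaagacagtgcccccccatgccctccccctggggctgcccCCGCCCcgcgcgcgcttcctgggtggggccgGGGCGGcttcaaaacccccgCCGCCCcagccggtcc

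CAGAC was found 1 time before the upstream Ltbp1 start, 2 times before the downstream one and 1 time before Ltbp3, and it lies in 42.2% of the 32851 RefSeq windows of this length. GGGCGG was found 7 times in the Ltbp4 window printed, 5 and 3 times before the other Ltbp4 starts and 5 times before Tgfb1, and it lies in 32.7% of all windows. The Ltbp4 window with 5 overlaps the printed window over most of its length, and its 5 sites are among the 7. Some of these 7 share bases with each other. GCGTGGGCG was found 1 time, before Tgfb1, where it shares 5 bases with an SP1 box, and it lies in 0.536% of windows. The AP-1 site TGANTCA (6.75% of windows) and the TEAD site GGAATG (12.6%) were also searched on both strands, and these letters are not in the 5 windows printed. No motif of the 5 searched was in all 6 windows of the latent binding protein genes. The windows also differed in base composition, with 64.4% to 79.2% G and C before the Ltbp4 starts, 47.2% before Ltbp3 and 56.8% and 50.8% before the Ltbp1 starts, beside a median of 52.4% over all windows. These matches are a description of letters and show no binding.

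Ltbp1 (ENSMUSG00000001870, chromosome 17, 75005568 to 75392512 on GRCm38) encodes the latent binding protein that was first found bound to TGF-beta. It was at 17.3, 19.0 and 17.8 FPKM in control replicates 1 to 3 and at 9.84, 10.5 and 8.42 FPKM in mitochondria replicates 1 to 3. Every mitochondria library was lower than every control library, and the gap between the groups was wider than the spread within either. The means were 18.0 ± 0.894 and 9.57 ± 1.05 FPKM (SD, n = 3 each). On the log2(FPKM + 1) scale the change was −0.85 (SE 0.08, limma adjusted p = 0.0141). Leaving out each library in turn kept the change between −0.91 and −0.77. The call was kept in 4 of these 6 fits and lost without control replicate 2 (limma adjusted p = 0.0721) and without mitochondria replicate 1 (limma adjusted p = 0.0762). It was kept in 7 of 8 other settings, and lost where no filter on low values was used (limma adjusted p = 0.0708).

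Ltbp3 (ENSMUSG00000024940, chromosome 19, 5740904 to 5758532), which binds all ligand isoforms and is needed for tooth and bone growth, was the most abundant latent binding protein. It was at 38.7, 37.5 and 37.7 FPKM in the controls and at 32.5, 32.9 and 32.9 FPKM with mitochondria. The groups did not overlap and the libraries of each group lay close together, but the difference was small. The means were 37.9 ± 0.643 and 32.8 ± 0.245 FPKM (SD, n = 3 each), and the log2 change was −0.21 (SE 0.04), which did not pass (limma adjusted p = 0.0934).

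Ltbp4 (ENSMUSG00000040488, chromosome 7, 27305136 to 27337692), which is known to take part in elastic fibre assembly besides binding Tgfb1, was the least abundant of the latent binding proteins. It was at 5.03, 4.97 and 4.98 FPKM in the controls and at 3.67, 4.07 and 3.67 FPKM with mitochondria. Again every mitochondria library was lower than every control library. The means were 4.99 ± 0.0303 and 3.80 ± 0.233 FPKM (SD, n = 3 each), and the log2 change was −0.32 (SE 0.06), which did not pass (limma adjusted p = 0.0760). Ltbp3 and Ltbp4 were called in none of the 6 fits without a library and in none of the 8 and 7 other settings that tested them. Ltbp2, which belongs to the same family but does not bind TGF-beta, was at 0.0397 FPKM or less in every library and was not tested.

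**Figure D2:**
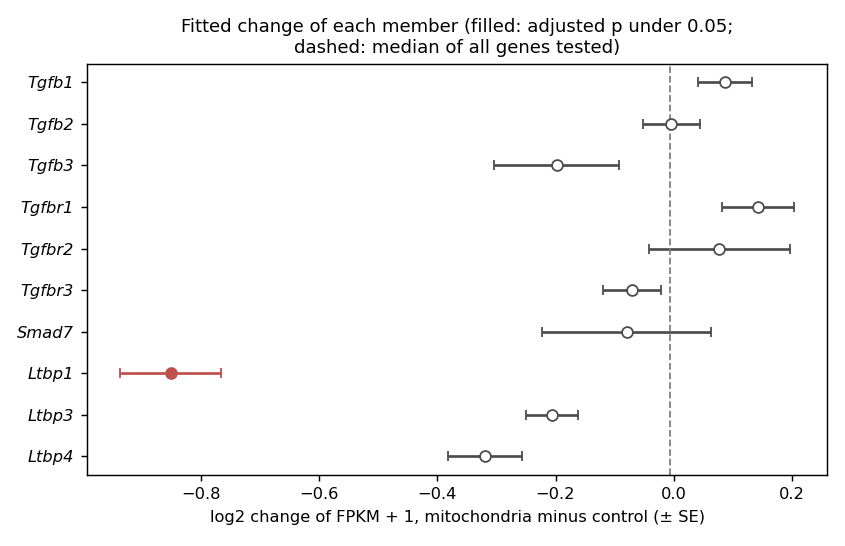
Fitted log2 change of each gene on the log2(FPKM + 1) scale (horizontal axis, mitochondria minus control), with the SE as bars and the median of all genes tested as a dashed line. Ltbp1, at −0.85, is the 1 filled point, past an adjusted p of 0.05, and Ltbp4 and Ltbp3 follow at −0.32 and −0.21.

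The 3 latent binding proteins summed to 61.0, 61.5 and 60.4 FPKM in the controls and to 46.0, 47.5 and 45.0 FPKM with mitochondria. The sum was thus lower in every mitochondria library, and its make-up moved as well. Ltbp1 made up 29.6% ± 1.305 of the sum in the controls and 20.7% ± 1.76 with mitochondria, and Ltbp3 62.2% ± 1.23 and 71.0% ± 1.91 (SD, n = 3 each), with no overlap between groups. The share of Ltbp4 overlapped, at 8.19% ± 0.0858 and 8.24% ± 0.309. The ratio of Ltbp1 to Ltbp3 in FPKM was 0.447, 0.507 and 0.472 in the controls and 0.303, 0.318 and 0.256 with mitochondria. Per ligand FPKM there were 0.746 to 0.791 FPKM of latent binding protein in the controls and 0.582 to 0.608 with mitochondria. These sums and ratios follow from the values of their members and were not tested.

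**Figure D3:**
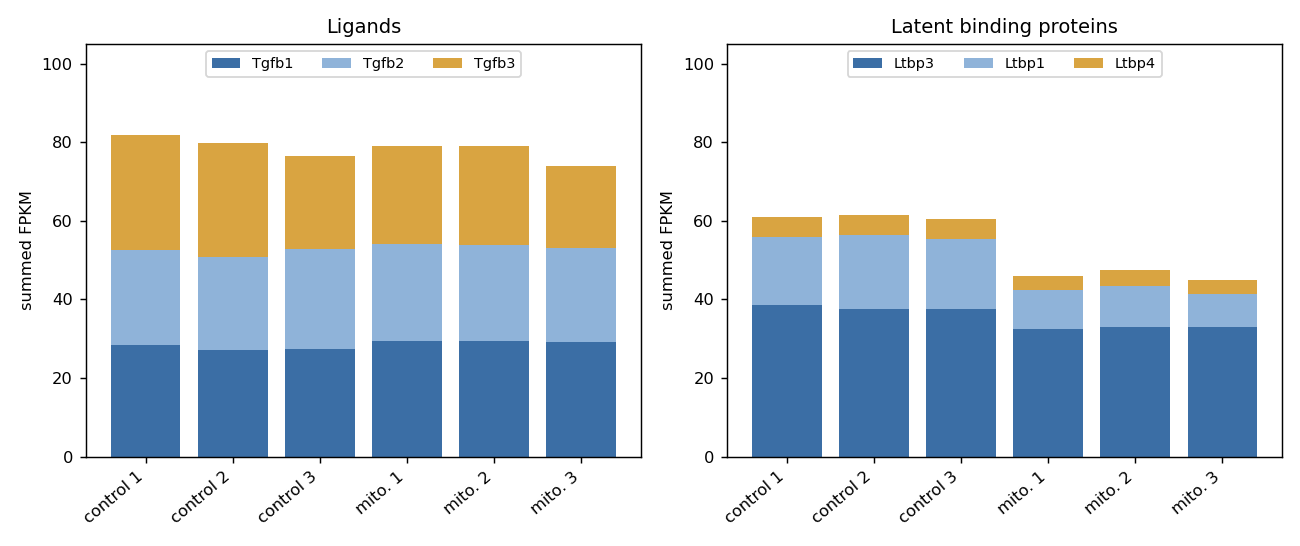
Summed FPKM (vertical axes, from 0) of the ligands (left) and of the latent binding proteins (right) in each of the 6 libraries, stacked by gene. The latent binding protein bars reach 60.4 to 61.5 FPKM in the controls and 45.0 to 47.5 with mitochondria, while the ligand bars of the groups overlap.

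The ligands were all expressed, at similar levels, and none passed the test. Tgfb1 (ENSMUSG00000002603, chromosome 7, 25687002 to 25705077), the isoform most studied in vessels and immunity, was at 28.3, 27.0 and 27.4 FPKM in the controls and at 29.4, 29.4 and 29.2 FPKM with mitochondria. The groups did not overlap, yet the means of 27.6 ± 0.679 and 29.4 ± 0.129 FPKM (SD, n = 3 each) differed by 6.42% of the control level. The log2 change was 0.09 (SE 0.05, limma adjusted p = 0.454). Tgfb2 (ENSMUSG00000039239, chromosome 1, 186622792 to 186705989), the isoform that needs betaglycan for tight receptor binding, was at 24.3, 23.8 and 25.3 FPKM in the controls and at 24.8, 24.5 and 23.9 FPKM with mitochondria. These values interleaved, and the log2 change was −0.00 (SE 0.05, limma adjusted p = 0.984), whose sign turned under some settings.

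Tgfb3 (ENSMUSG00000021253, chromosome 12, 86056745 to 86079041), the isoform known from palate fusion and scarless repair, was at 29.1, 28.9 and 23.7 FPKM in the controls and at 24.8, 25.2 and 20.8 FPKM with mitochondria. Replicate 3 was the lowest library in both groups, and the control replicate 3 lay below mitochondria replicates 1 and 2, so the groups overlapped. The log2 change was −0.20 (SE 0.11, limma adjusted p = 0.467). The share of its 31-base words found elsewhere was 9.96%, mainly in the antisense gene Gm48008, which was at 0.0853 FPKM or less. The ligands summed to 79.3 ± 2.72 and 77.4 ± 2.94 FPKM (SD, n = 3 each), which overlapped. The share of Tgfb1 in that sum was 34.7%, 33.9% and 35.9% in the controls and 37.3%, 37.2% and 39.5% with mitochondria, a difference of 3.18 percentage points that was not tested.

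Among the receptors, Tgfbr3 (ENSMUSG00000029287, chromosome 5, 107106570 to 107289629), which encodes betaglycan, a co-receptor without a kinase, was the highest of all 10 genes. It was at 50.7, 54.7 and 52.7 FPKM in the controls and at 49.9, 49.6 and 51.0 FPKM with mitochondria. Control replicate 1 lay below the highest mitochondria library, and the log2 change was −0.07 (SE 0.05, limma adjusted p = 0.584). Tgfbr1 (ENSMUSG00000007613, chromosome 4, 47353222 to 47414931), the kinase that phosphorylates SMADs, was at 8.86, 9.44 and 8.63 FPKM in the controls and at 10.3, 10.2 and 9.53 FPKM with mitochondria. The groups were narrowly apart, and the log2 change of 0.14 (SE 0.06, limma adjusted p = 0.368) did not pass. Tgfbr2 (ENSMUSG00000032440, chromosome 9, 116084293 to 116175360), the kinase that binds ligand first, was at 9.07, 10.9 and 12.4 FPKM in the controls and at 10.8, 10.6 and 12.7 FPKM with mitochondria. Its groups overlapped widely, and the log2 change was 0.08 (SE 0.12, limma adjusted p = 0.828).

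Betaglycan thus held 72.7% ± 1.21 of the summed receptor FPKM in the controls and 70.1% ± 0.444 with mitochondria (SD, n = 3 each). Tgfbr1 and Tgfbr2 stood near each other, with a Tgfbr1 to Tgfbr2 ratio of 0.846 ± 0.142 and 0.887 ± 0.120. Eng, which encodes endoglin, the related co-receptor of endothelium, was at 59.0 ± 4.47 and 63.1 ± 5.08 FPKM (SD, n = 3 each) and did not pass (limma adjusted p = 0.664).

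Smad7 (ENSMUSG00000025880), the feedback inhibitor that TGF-beta signalling itself induces, was the lowest of the 10 genes in both groups. It was at 3.80, 2.40 and 3.85 FPKM in the controls and at 3.23, 3.10 and 2.87 FPKM with mitochondria. Control replicate 2 was the lowest of all 6 libraries, and the other controls were the highest. The log2 change was −0.08 (SE 0.14, limma adjusted p = 0.860). With the leave-out of single libraries it ran from −0.25 to 0.01, so no direction can be given.

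In the order of control levels, Tgfbr3 and then Ltbp3 came first, each apart from the next gene in every library. Tgfb1, Tgfb3 and Tgfb2 followed with overlapping ranges between neighbours. Ltbp1 was sixth, below the ligands and above the kinases Tgfbr2 and Tgfbr1, whose ranges overlapped, and Ltbp4 and Smad7 were last. With mitochondria Ltbp1 stood eighth, below both kinases, and its range overlapped that of Tgfbr1. Among the 12639 genes tested, mean levels lay between percentile 25.4 for Smad7 and percentile 92.6 for Tgfbr3.

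A further list held genes that carry and regulate the signal. Of 28 listed transducers and regulators 27 were tested, 0 were called by limma and 1 had an unadjusted p under 0.05, in the lower direction. Over all genes tested 1.12% were called, so a count of 0 in a list of this size is near that share. The median log2 change was −0.01, as over all genes tested. That 1 gene was Pmepa1, a membrane protein that traps SMADs and is induced by TGF-beta, at 41.9, 39.2 and 42.9 FPKM in the controls and 31.6, 32.4 and 26.5 FPKM with mitochondria (log2 change −0.45, SE 0.09, limma adjusted p = 0.0730). Its groups were apart, but it did not pass. The next smallest p-values were those of Tab1 and Map3k7, partners in TAK1 signalling, and of Acvr1, a BMP type I receptor. Tab1 was at 10.6 ± 0.333 and 9.27 ± 0.889 FPKM, Acvr1 at 9.99 ± 0.337 and 9.04 ± 0.554 FPKM and Map3k7 at 11.1 ± 2.40 and 13.6 ± 1.01 FPKM (SD, n = 3 each), with limma adjusted p-values of 0.376 to 0.423.

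The list of genes that hold, process or release the latent complex had calls in both directions. Of 31 listed genes 21 were tested, and 1 rose and 2 fell by limma, beside 0.467% and 0.649% of all genes. At an unadjusted p under 0.05, 3 were higher and 6 lower, beside 6.58% and 7.32% of all genes, and the median log2 change was −0.03. This list too was written with earlier results of these data known, so its counts are not independent evidence. Igf2r, the mannose 6-phosphate receptor, which also binds the latent complex, was at 65.8, 76.0 and 71.0 FPKM in the controls and at 112, 109 and 114 FPKM with mitochondria. All mitochondria libraries were well above the controls, and the log2 change was 0.65 (SE 0.06, limma adjusted p = 0.0131). Fbn1, fibrillin-1, the matrix scaffold on which Ltbp1 complexes are laid down, was at 19.7, 26.0 and 29.7 FPKM in the controls and at 11.7, 12.6 and 13.2 FPKM with mitochondria. On the log2 scale it changed by −0.93 (SE 0.14), with a limma adjusted p of 0.0382 and with controls that varied more than the mitochondria libraries.

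Mmp2, a gelatinase that can release latent TGF-beta, was at 3.11, 3.89 and 4.18 FPKM in the controls and at 1.92, 1.73 and 1.76 FPKM with mitochondria. On the log2 scale it changed by −0.75 (SE 0.10), with a limma adjusted p of 0.0288. The ratio of Ltbp1 to Fbn1 was 0.598 to 0.876 in the controls and 0.636 to 0.838 with mitochondria, so these ratios overlapped while each gene was lower. The 3 calls of this list were 1 without control replicate 2 or 3, 3 without control replicate 1, and 0 without any single mitochondria library. They were 5 with quantile normalization and 0 with no filter.

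Other genes of this list came near the threshold without passing. Tgm2, the transglutaminase that fixes the latent complex to matrix, was at 59.9 ± 4.79 and 80.9 ± 6.52 FPKM (limma adjusted p = 0.0760). Pcsk5, a furin-like protease, was at 1.84 ± 0.166 and 1.05 ± 0.121 FPKM (limma adjusted p = 0.0661). Plaur, the urokinase receptor, was at 7.51 ± 0.430 and 5.81 ± 0.138 FPKM, and Fmod, a proteoglycan that binds TGF-beta, at 4.08 ± 0.589 and 2.80 ± 0.0367 FPKM (SD, n = 3 each), with limma adjusted p-values of 0.0730 and 0.119. Pcsk5 and Tgm2 each passed in 2 of the other settings. The integrin chain Itgb8, which activates latent TGF-beta in brain, was among the 10 genes not tested.

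Target genes of TGF-beta had calls in the lower direction. Of 38 listed targets 30 were tested, and 5 fell and 0 rose, beside 0.649% of all genes called lower and 0.467% called higher. At an unadjusted p under 0.05, 13 were lower and 1 was higher, beside 7.32% and 6.58% of all genes. The 1 higher was Acta2, at 1.64 ± 0.107 and 2.18 ± 0.215 FPKM (SD, n = 3 each, limma adjusted p = 0.204). Col3a1 was at 220 ± 7.34 and 231 ± 15.6 FPKM (limma adjusted p = 0.702). Fn1 was at 27.1 ± 3.10 and 26.7 ± 1.19 FPKM (limma adjusted p = 0.951). Col3a1 and Fn1 were picked once their values were known. Of all 30 log2 changes, 23 were below 0 and 7 above. The 30 and the 13 include Postn, which reached 1 FPKM only in the controls and so passed the filter only through them. The median log2 change was −0.20, beside −0.01 over all genes. Earlier results of these data were known when this list was written, so its direction is not independent evidence. Without control replicates 1, 2 and 3 the list had 2, 2 and 3 calls, without any 1 mitochondria library it had 1, and with no filter 1. The summed fibroblast and mural markers, which include Col1a1, were lower with mitochondria as given above. Without Col1a1 the sums overlapped, at 292 to 325 FPKM in the controls and 294 to 334 FPKM with mitochondria. Most of these sums was Col3a1, at 214 to 248 FPKM over all libraries.

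**Figure D4:**
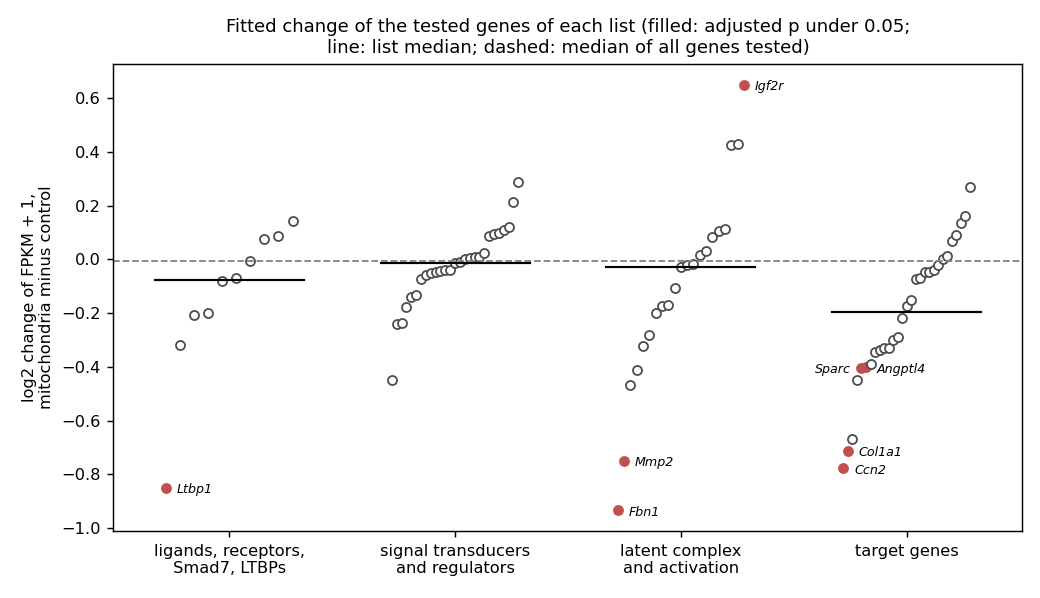
Fitted log2 change (vertical axis, log2(FPKM + 1), mitochondria minus control) of the tested genes in the 4 lists, 1 called target left out, sorted within each list, with filled points for genes at an adjusted p under 0.05 and a line at the list median. The medians are −0.08, −0.01, −0.03 and −0.20 from left to right, and the 4 filled target genes shown all lie below 0.

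The 4 called targets described here encode matrix or other secreted proteins. Col1a1, a chain of fibrillar type I collagen, was at 140.3, 135 and 138 FPKM in the controls and at 82.2, 87.5 and 81.9 FPKM with mitochondria, and fell by 0.71 (SE 0.05, limma adjusted p = 0.00547). Its groups were apart by a wide margin. Col1a2, the other type I collagen gene of the list, was at 0.0807 to 0.330 FPKM over all libraries and was not tested. Ccn2, connective tissue growth factor, was at 8.56, 9.03 and 9.88 FPKM in the controls and at 5.48, 5.19 and 4.17 FPKM with mitochondria (log2 change −0.78, SE 0.10, limma adjusted p = 0.0268).

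Sparc, a collagen-binding matrix protein, was at 298 to 323 FPKM in the controls and at 233 to 237 FPKM with mitochondria (log2 change −0.40, SE 0.05, limma adjusted p = 0.0272). Angptl4, a secreted lipase inhibitor that also answers to PPAR and hypoxia signals, was at 43.1 to 47.8 FPKM and at 32.8 to 35.4 FPKM, and its log2 change was also −0.40 (SE 0.06, limma adjusted p = 0.0359). In the 6 fits without a library Col1a1 was called in 6, Sparc in 1 and Ccn2 and Angptl4 in 0, and limma's adjusted p for Ccn2 and Angptl4 ran from 0.0540 to 0.174.

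**Figure D5:**
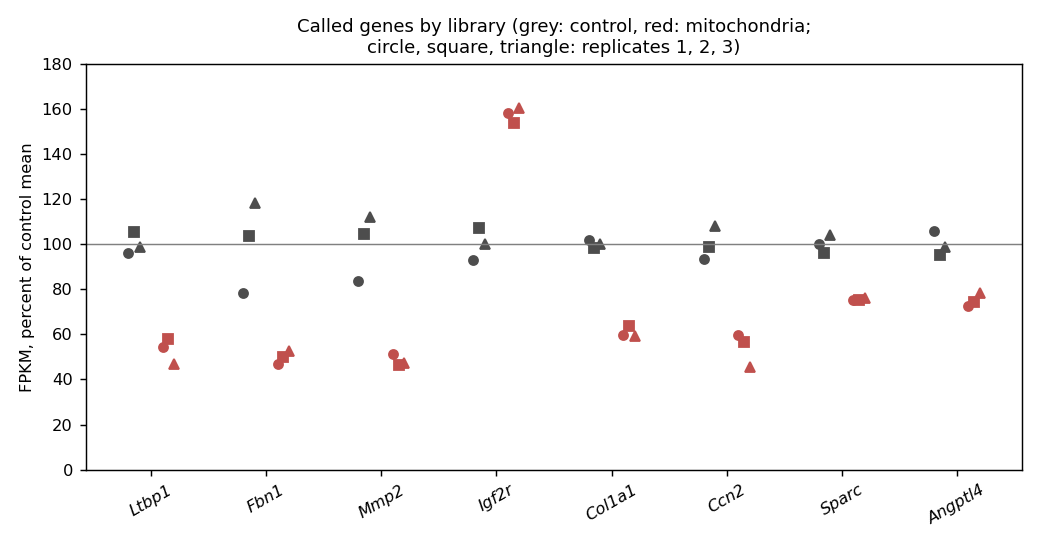
FPKM of the called genes described here in each library, as a percent of its control mean (vertical axis, from 0), with grey points for controls and red for mitochondria. Ltbp1 lies at 46.7% to 58.1% with mitochondria, Fbn1, Mmp2, Col1a1, Ccn2, Sparc and Angptl4 also lie below their controls, and Igf2r lies at 154% to 160.5%.

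Cdkn2b, a cell cycle inhibitor induced by SMADs, Postn, the matrix protein periostin, and Junb, an AP-1 subunit, did not pass, nor did Pmepa1, whose p was smaller than theirs. The target list shares 3 genes with the regulators, Pmepa1, Skil and Tgif1. Cdkn2b was at 54.8 ± 3.45 and 42.9 ± 2.83 FPKM, Postn at 1.12 ± 0.0792 and 0.687 ± 0.0662 FPKM and Junb at 23.7 ± 2.07 and 17.8 ± 1.89 FPKM (SD, n = 3 each), with limma adjusted p-values of 0.0868 to 0.136. Postn was tested only because its controls reached 1 FPKM, so nothing is drawn from its lower direction. Tgfbi, which was named for its induction by TGF-beta, was low, at 1.72 ± 0.295 and 1.74 ± 0.114 FPKM, and did not pass (limma adjusted p = 0.972). Tgfbi was picked once its values were known.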

How the data were processed

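The files the authors deposited hold 1 value per gene and library. Their headers name no unit, and the deposited values were read as FPKM because they are not whole and sum to 281433 to 297838 in a library. The build GRCm38 (mm10) and the tools StringTie 1.3.1c, STAR 2.5.3a and FastQC 0.11.5 are named, per the submitters' processing notes, with roles and settings not given in the sources used here. FPKM scaling removes depth, so no count model was used. Depth was estimated from multiples of the value of 1 fragment in genes with 1 transcript. Symbols came from GENCODE M21, which matched 55154 identifiers.

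Log2(FPKM + 1) was modelled in limma 3.58.1 under R 4.3.3 (group as the only term, empirical Bayes with trend and robust options) on genes that reached 1 FPKM in 3 or more of the 6 libraries. P-values are two-sided and were adjusted by the Benjamini-Hochberg method over every gene tested. The pseudocount of 1 understates changes of low genes. The code was tested on simulated data. The 10 genes and the 3 pathway lists were chosen with earlier results of these data known. The text names all 10 genes, each called list gene (1 called target is not reported here), up to 4 further genes of each list by smallest p, and Eng and Igf2r. Other settings were a pseudocount of 0.1, no filter, a mean of 5 FPKM, median-ratio scaling, quantile normalization, TPM, plain empirical Bayes, the replicate block and omission of each library. Marker sums without Col1a1 or Cd34 were added after seeing the data.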

Additional observations from a re-analysis of the deposited data

How the results depend on the processing

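Of 138 log2 changes of the 10 genes under other settings, 127 kept direction and side of the threshold, 3 lost the call (all Ltbp1) and 8 changed sign. Tgfb2 was at 0.0062 with median-ratio scaling, 0.025 with quantile normalization and −0.022 to 0.019 without a single library, above 0 without control or mitochondria replicate 3. Tgfbr2 ran from −0.033 to 0.17, below 0 without control replicate 1 or mitochondria replicate 3, and Smad7 from −0.25 to 0.0077, above 0 without control replicate 1 or 3.

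Of the 10 genes 1 was called with the replicate block, 0 with no filter, and 0 to 1 without a single library. The no-filter fit tested 29365 genes, and there 13 genes in all, 0 latent complex genes and 1 target were called. Quantile normalization called 5 latent complex genes. Leaving out a library gave 14 to 88 calls over all genes in place of 141, 0 to 3 latent complex genes, 1 to 3 targets and 0 regulators, and kept the Tgfb1 share difference at 2.43 to 3.73 percentage points. With the replicate block 56 genes in all, 2 latent complex genes and 2 targets were called. Mmp2, Sparc, Ccn2 and Angptl4 lost their calls there (limma adjusted p = 0.0619 to 0.0713). Fbn1 lost its call with TPM (limma adjusted p = 0.05003), and Angptl4 with plain empirical Bayes (limma adjusted p = 0.0523). Deviations from the group means correlated at 0.10, 0.05 and 0.30 for same-numbered libraries and at −0.20 to 0.12 for other-numbered ones. Control replicates 1 and 3 correlated best with the mitochondria library of their own number, and control replicate 2 with mitochondria replicate 1 (0.12). These values do not settle whether the numbers pair the libraries, and the labels state no pairing, so the main fit held no replicate term. Estimated depth differed between the groups without overlap, and its part was not tested. Genes that reached 1 FPKM in fewer than 3 libraries were not in the main fit.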

Other observations

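Single libraries stood apart in some pathway genes, which were picked once their values were known. Ski, a corepressor that binds SMADs, was at 16.4 FPKM in control replicate 2, while the other 5 libraries held 31.5 to 36.0 FPKM. Smad7 was lowest in the same library. Bmp4, a ligand of the related BMP branch, was at 25.8 FPKM in mitochondria replicate 3 and at 59.2 to 90.1 FPKM in the other 5. Acvrl1, the endothelial type I receptor ALK1, was at 7.67 FPKM in mitochondria replicate 3 and at 11.98 to 13.1 FPKM elsewhere. None of these 4 genes passed the limma threshold. Thbs1, thrombospondin-1, which can activate latent TGF-beta, was at 59.1, 70.4 and 94.4 FPKM in the controls and at 94.0, 92.3 and 111 FPKM with mitochondria, where control replicate 3 fell among the mitochondria libraries (limma adjusted p = 0.324).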
